A study of Mus musculus with 4 samples.

Results

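The wide NF-Y sites are the sites over 200 bp (end minus start) in 3 deposited lists of NF-Y binding sites, 1 list per subunit. They were chosen by their measured width alone, so width is no finding here. They number 362 of the 10091 sites in the lists: 221 of 4642 for NF-YA, 54 of 2774 for NF-YB and 87 of 2675 for NF-YC. Members were chosen in each list by itself, and sites of different lists were joined only to count the places they share. The usual NF-Y site is 40 to 60 bp wide, a width found for 3009 sites in the NF-YA list, 2149 in NF-YB and 1827 in NF-YC.

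NF-Y is a trimeric transcription factor. Its subunits NF-YB and NF-YC form a dimer through histone-fold domains, and NF-YA binds this dimer and recognises the CCAAT sequence. CCAAT boxes are common in promoters, among them those of many cell-cycle genes, and a promoter can carry several of them at short spacing. In chromatin immunoprecipitation and sequencing (ChIP-seq), tags of the sense strand gather on one side of a bound position and tags of the antisense strand on the other. The site caller used here places a site where the tags turn from sense to antisense. The width of a site is thus set by the caller and is not the footprint of the protein. Whether a wide site holds a single long turn or several joined turns was not analysed here.

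All 4 libraries were made from the embryonic stem cell line E14Tg2a (mouse strain 129/Ola), at passages 20 to 35 with no treatment other than fixation in 1% formaldehyde for 10 min. The antibody was a mouse monoclonal for NF-YA and a rabbit polyclonal for each of the other subunits. Each subunit had 1 library, and 1 input DNA library without antibody was the common background. The caller kept 11479998 tags of the NF-YA library, 13859303 of NF-YB and 11390494 of NF-YC, against 13767116 input tags. Tag counts below are not scaled for these depths. With no replicate library, no comparison below has a replicate check or a test, and intervals over sites are exact (Clopper-Pearson) 95% binomial intervals that cover counting error only. Positions are on mm9 as deposited. Genes, promoters and CCAAT boxes at the sites were not analysed here, since no mm9 sequence or annotation was used.

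Wide sites made up 4.76% of the NF-YA list (95% interval 4.17 to 5.41), 1.95% of the NF-YB list (1.47 to 2.53) and 3.25% of the NF-YC list (2.61 to 3.996). Every width was a multiple of 20 bp, the size of the caller's scanning window, so the narrowest wide sites measured 220 bp. The median wide site measured 240 bp in NF-YA, 260 bp in NF-YB and 240 bp in NF-YC. Widths ran on across the limit without a gap: NF-YA had 84 sites of 200 bp, 58 of 220 bp and 54 of 240 bp, NF-YB had 26, 10 and 15, and NF-YC had 37, 33 and 19. Sites over 300 bp numbered 47 in NF-YA, 19 in NF-YB and 22 in NF-YC.

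**Figure D1:**
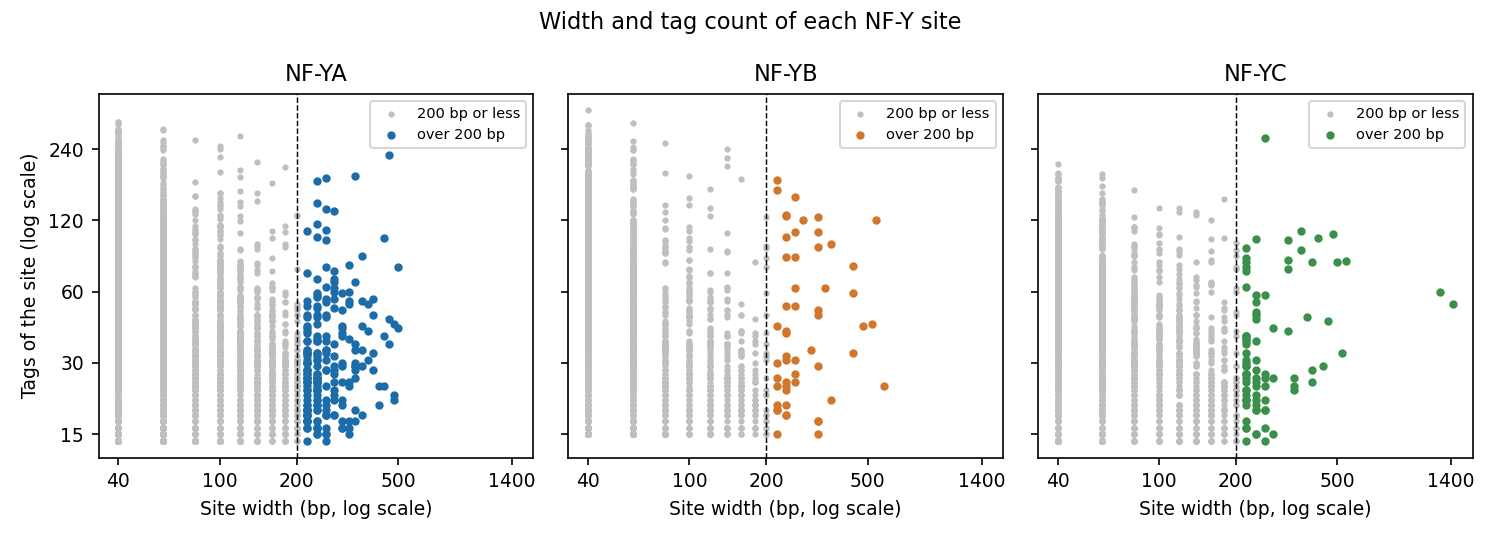
Width of each site (x axis, bp, log scale) against its tag count (y axis, tags, log scale), with 1 panel per list, wide sites in colour, the other sites in grey and a dashed line at 200 bp. Wide sites run from 14 to 226 tags in NF-YA, from 15 to 178 in NF-YB and from 14 to 267 in NF-YC, and the 2 NF-YC points at the far right, of 1260 and 1420 bp, lie on chromosome Y.

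The sites with most tags on each side of the limit differed between the lists in which side held more. Just inside it at 220 bp, the sites with most tags were chr5:130363051-130363271 (108 tags) and chr4:122563411-122563631 (72 tags) in NF-YA. Just outside it at 200 bp were chr17:17141871-17142071 (126 tags) and chr5:114580891-114581091 (125 tags). For NF-YB the sites inside were chr7:26053091-26053311 (178 tags) and chr14:118331631-118331851 (161 tags), and those outside chr9:56923751-56923951 (124 tags) and chr8:74685031-74685231 (94 tags). For NF-YC the sites inside were chr3:100726051-100726271 (92 tags) and chr17:26057011-26057231 (83 tags), and those outside held 96 tags on chromosome 18 and 90 tags at chr2:10286751-10286951. The limit divides a continuous range of widths.

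Tag counts and folds of the wide sites come from the libraries that set their widths, and are given as a description. The wide NF-YA sites had 14 to 226 tags with a median of 29, against a median of 43 for NF-YA sites of 40 to 60 bp and 26 for those of 80 to 200 bp. The wide NF-YB sites had 15 to 178 tags with a median of 40.5, against 49 and 26. The wide NF-YC sites had 14 to 267 tags with a median of 29, against 42 and 27. At the median, wide sites thus held fewer tags than the usual sites and more than those of middle width in each list, with the margin over middle width widest in NF-YB. Within the wide sites the longest were not the weakest: the median tag count went from 27.5 at 220 to 300 bp to 34 over 300 bp in NF-YA, from 32 to 48 in NF-YB and from 27 to 56.5 in NF-YC.

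Fold enrichment over input, the authors' value for each site, was less tied to width than the tag count was. The median fold was 18.0 for both wide and usual NF-YA sites, 17.9 for wide and 17.3 for usual NF-YB sites, and 19.3 for wide and 16.9 for usual NF-YC sites. The 22 NF-YC sites over 300 bp had the highest median of any width class in the 3 lists, 26.1. In the tenth of each list with most tags, wide sites were 8 of 221 in NF-YA (3.62%), 6 of 54 in NF-YB (11.1%) and 8 of 87 in NF-YC (9.20%), where the usual sites had 13.6%, 12.0% and 12.7%. Every site of 40 to 60 bp had a fold equal to its tags over a whole number of scaled input tags. That held for 138 of the 221 wide NF-YA sites (62.4%), 38 of 54 in NF-YB (70.4%) and 53 of 87 in NF-YC (60.9%), and for 8 of the 22 NF-YC sites over 300 bp. The printed fold of a wide site is thus less often a plain quotient of its printed tags.

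The wide sites with most tags included some of the strongest sites of their lists. In NF-YA the highest was chr3:95428791-95429251, 460 bp wide with 226 tags and a fold of 102. It was followed by chr7:52241811-52242151 (340 bp, 184 tags, fold 72.0), chr1:133424051-133424311 (260 bp, 181 tags, fold 82.2), chr11:115375571-115375811 (240 bp, 176 tags, fold 35.2) and chr7:19930651-19930891 (240 bp, 142 tags, fold 34.1). The first 3 of these 5 were wide in NF-YC too, and the other two had an NF-YC site of 40 bp. The highest fold of a wide NF-YA site was 115, at chr17:86550271-86550551 (280 bp, 131 tags), followed by the first and the third of the strongest sites just named. Next came chr1:34496291-34496631 (340 bp) and chr5:121038731-121039011 (280 bp), each with 66 tags and a fold of 79.2.

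In NF-YB the wide sites with most tags were chr7:26053091-26053311 (220 bp, 178 tags, fold 44.2), chr14:118331631-118331851 (220 bp, 161 tags, fold 131), chr7:4691351-4691611 (260 bp, 151 tags, fold 140), chr8:116158891-116159131 (240 bp, 127 tags, fold 63.1) and chr14:68333731-68333971 (240 bp, 125 tags, fold 31.0). By fold, chr17:85356591-85357131 (fold 119) and chr14:22319771-22320031 (fold 97.4) joined them. At chr14:118331631-118331851, with 161 tags in NF-YB, the sites at the same place had 47 tags in NF-YA (63.3rd percentile of its list) and 24 in NF-YC (28.3rd percentile). Its rank by tags was thus higher in NF-YB than in the other lists.

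In NF-YC the strongest site of the whole list was wide: chr3:90279771-90280031, 260 bp with 267 tags and a fold of 46.1. The NF-YA list held a wide site with the same start and end, of 134 tags (93.4th percentile), and NF-YB a 40 bp site of 85 tags (79.5th percentile). The wide NF-YC sites next in tags were chr16:38089051-38089411 (360 bp, 108 tags), chr3:95428791-95429271 (480 bp, 105 tags), chr3:107136111-107136531 (420 bp, 101 tags) and chr8:72736391-72736631 (240 bp, 100 tags). By fold the highest wide NF-YC sites were chr13:23854271-23854511 (49 tags, fold 59.2), chr1:133424011-133424331 (99 tags, fold 58.6), chr8:11558131-11558371 (48 tags, fold 58.0), chrX:71515591-71516051 (45 tags, fold 54.4) and chr3:95428791-95429271 (fold 53.2). At chr13:23854271-23854511 the partner in NF-YB was 40 bp wide with 185 tags, at the 97.0th percentile of its list, against the 65.9th percentile for the wide site in NF-YC.

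The choice by width did not use the sites of the other lists, which came from other libraries called against the same input. Of the 221 wide NF-YA sites, 81 (36.7%, 30.3 to 43.4) had an NF-YB site with its centre within 200 bp, against 50.2% of all NF-YA sites. An NF-YC site lay at 82 of them (37.1%, 30.7 to 43.8), against 50.5%. For NF-YA sites of 80 to 200 bp these shares were 40.3% and 39.2%, inside the intervals of the wide sites. A share below that of all sites was thus not particular to wide NF-YA sites. Of the 54 wide NF-YB sites, 42 (77.8%, 64.4 to 88.0) had an NF-YA site, against 84.0% of all NF-YB sites, and 34 (63.0%, 48.7 to 75.7) an NF-YC site, against 64.3%. Of the 87 wide NF-YC sites, 74 (85.1%, 75.8 to 91.8) had an NF-YA site, against 87.4% of all NF-YC sites, and 58 (66.7%, 55.7 to 76.4) an NF-YB site, against 66.5%. The share over all sites lay outside the interval of the wide sites for both NF-YA pairs and inside it for the other 4 pairs. No test of these differences was possible with 1 library each.

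Within ranges of tag count, wide NF-YA sites still had a partner less often than usual ones, by smaller margins than over the whole list. Under 30 tags, 19 of 115 wide NF-YA sites had an NF-YB site (16.5%, 10.3 to 24.6), against 25.6% of usual NF-YA sites (22.9 to 28.4). From 30 to 59 tags the shares were 50.6% (39.1 to 62.1) and 53.8% (50.4 to 57.0), and at 60 or more tags 81.5% (61.9 to 93.7) and 85.3% (83.1 to 87.4). For NF-YC partners the shares of wide and usual NF-YA sites were 16.5% (10.3 to 24.6) and 21.3%, 50.6% (39.1 to 62.1) and 58.2%, and 85.2% (66.3 to 95.8) and 88.1%. Sites in both other lists made up 8.70% of wide and 9.82% of usual NF-YA sites under 30 tags, 36.7% and 37.8% from 30 to 59 tags, and 77.8% and 78.8% at 60 or more. The share of usual sites lay above the interval of the wide ones for NF-YB partners under 30 tags, and inside it in the other ranges, for NF-YC partners and for both lists together. In NF-YB the shares in both other lists, wide against usual, were 40% and 34.3% under 30 tags, 50% and 62.9% from 30 to 59, and 88.9% and 85.8% at 60 or more. In NF-YC they were 53.3% and 43.0%, 73.9% and 67.8%, and 73.7% and 84.6%, with no one direction. Tags under 30 were found at 115 of the 221 wide NF-YA sites (52.0%) and at 33.5% of the usual ones. The part of the tag counts in the lower sharing was not tested.

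**Figure D2:**
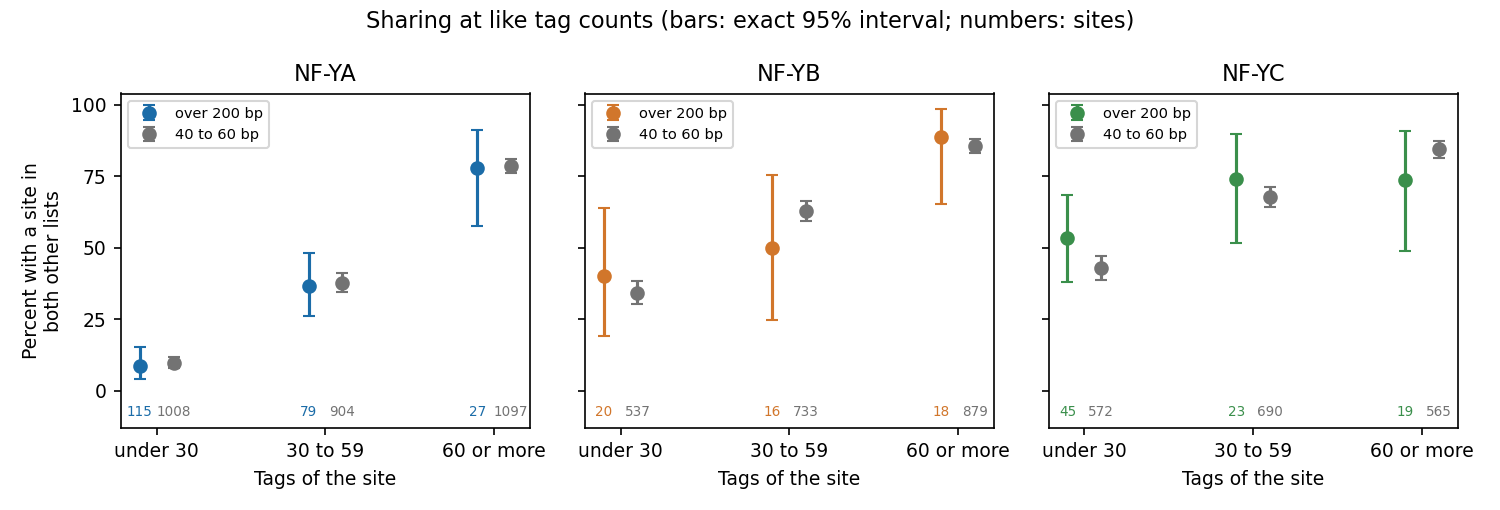
Percent of sites with a site of both other lists within 200 bp (y axis), by the site's own tag count (x axis), for wide sites (colour) and sites of 40 to 60 bp (grey) in 1 panel per list. Points are shares, bars exact 95% binomial intervals and the numbers below the sites in each share. In NF-YA the wide and usual points lie at 8.70% and 9.82%, 36.7% and 37.8%, and 77.8% and 78.8%.

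A wide NF-YA site was the most often without company. Of the 221, 118 had neither an NF-YB nor an NF-YC site (53.4%, 46.6 to 60.1), against 36.5% of all NF-YA sites. Among NF-YA sites of 80 to 200 bp the share was 45.9%, nearer to that of the wide sites and just below their interval. For NF-YB 10 of 54 wide sites had neither (18.5%, 9.25 to 31.4), against 13.9%, and for NF-YC 10 of 87 (11.5%, 5.65 to 20.1), against 10.4%. The lone wide NF-YA sites had a median of 24 tags, and the wide NF-YA sites with both partners a median of 49. The lone NF-YA site with most tags was chr3:89222351-89222791, 440 bp with 101 tags. The nearest NF-YB and NF-YC centres lay 280 and 230 bp from its centre, just beyond the limit. The next lone NF-YA sites were chr14:28241671-28241931 (63 tags, fold 9.44) and chr10:80783371-80783691 (60 tags), where the nearest NF-YB sites lay 79940 and 19730 bp away. The 480 bp NF-YA sites chr7:71537231-71537711 (22 tags) and chr5:86494211-86494691 (21 tags) were also alone, and the nearest site of another list was 891350 bp or more away. Among NF-YB, chr6:52028551-52029131 was the widest site of its list at 580 bp and was alone with 24 tags. Lone wide sites in NF-YC included chr2:118485771-118486011 (58 tags), with the nearest NF-YA site 110350 bp away.

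The partner's rank in its own list was lower for wide than for usual NF-YA sites, and within the interval for wide NF-YB and NF-YC sites. The median percentile by tag count was 49.4 for NF-YB partners of wide NF-YA sites (95% interval of the median 35.4 to 57.8), against 60.8 for partners of usual NF-YA sites. It was 53.0 for NF-YC partners of wide NF-YA sites (38.2 to 59.1), against 59.1. Wide NF-YB sites had NF-YA partners at 73.4 (58.8 to 83.8), against 73.1, and NF-YC partners at 59.02 (34.8 to 81.8), against 62.4. Wide NF-YC sites had NF-YA partners at 71.2 (63.3 to 78.3), against 74.3, and NF-YB partners at 65.2 (50.4 to 71.6), against 65.6. The value for usual sites was above the interval for NF-YA with NF-YB, at its upper bound for NF-YA with NF-YC, and inside it for the other 4 pairs. Partners of NF-YA sites of 80 to 200 bp ranked lower still, at medians of 43.0 in NF-YB and 39.8 in NF-YC. A partner rank below that of usual sites was thus not particular to wide NF-YA sites.

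A partner of usual width was at least as frequent as a wide partner in every pair of lists. Of the 81 NF-YB partners of wide NF-YA sites, 53 were 40 to 60 bp wide, 18 were 80 to 200 bp wide and 10 were wide. Of the 82 NF-YC partners, 44 were usual, 18 of middle width and 20 wide. The 42 NF-YA partners of wide NF-YB sites were 16 usual, 16 middle and 10 wide, and the 34 NF-YC partners 12, 11 and 11. The 74 NF-YA partners of wide NF-YC sites were 35, 19 and 20, and the 58 NF-YB partners 32, 15 and 11.

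Width nevertheless recurred between the lists. A wide NF-YC site lay at 9.05% of wide NF-YA sites (5.62 to 13.6), against 1.70% of all NF-YA sites and 1.23% of the usual ones (0.867 to 1.69). A wide NF-YB site lay at 4.52% of wide NF-YA sites (2.19 to 8.16), against 0.948% of all and 0.565% of usual ones (0.329 to 0.903). For wide NF-YB sites the shares were 18.5% with a wide NF-YA site (9.25 to 31.4), against 2.99% of all NF-YB sites, and 20.4% with a wide NF-YC site (10.6 to 33.5), against 2.24%. For wide NF-YC sites they were 23.0% with a wide NF-YA site (14.6 to 33.2), against 3.14% of all NF-YC sites, and 12.6% with a wide NF-YB site (6.48 to 21.5), against 1.27%. In each of the 6 directions the share among all sites lay below the interval of the wide sites. The 6 directions describe 3 pairs of lists, and all lists were called against the same input library, whose part in the recurrence was not tested.

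The share with a wide partner was higher for wide than for usual sites in each of the 18 combinations of list, other list and tag range, though some intervals overlapped. Among wide NF-YA sites of 60 or more tags, 9 of 27 had a wide NF-YC site (33.3%, 16.5 to 54.0), against 2.01% of usual NF-YA sites with as many tags (1.26 to 3.02). From 30 to 59 tags the shares were 10.1% (4.47 to 19.0) and 0.996% (0.456 to 1.88). Under 30 tags they were 2.61% (0.541 to 7.43) and 0.595% (0.219 to 1.29), with overlapping intervals. Among wide NF-YC sites under 30 tags, 10 of 45 had a wide NF-YA site (22.2%, 11.2 to 37.1), against 2.80% of usual NF-YC sites (1.61 to 4.50).

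**Figure D3:**
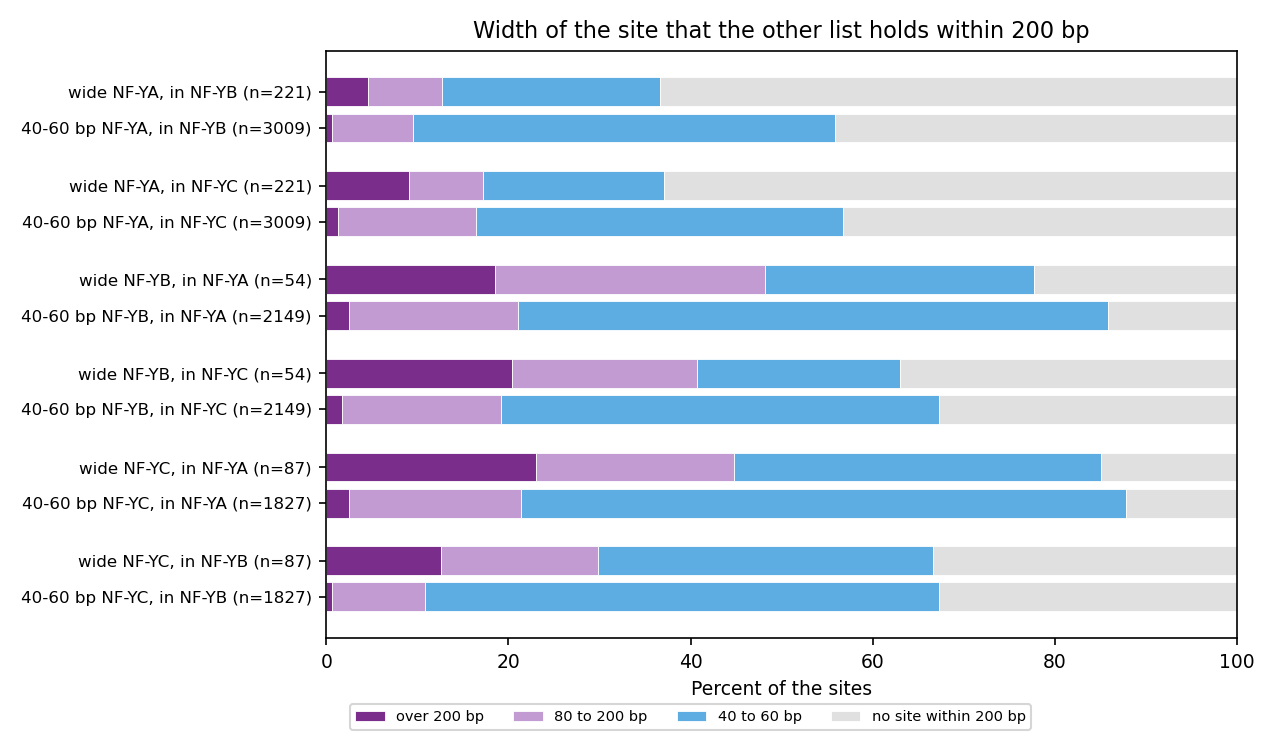
Percent of sites (x axis) whose nearest site in another list within 200 bp was over 200 bp, 80 to 200 bp or 40 to 60 bp wide, or that had none, for wide sites and for sites of 40 to 60 bp (rows, with n) in each ordered pair of lists. The dark part, a wide partner, is 23.0% for wide NF-YC sites in NF-YA and 9.05% for wide NF-YA sites in NF-YC.

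Joined by centres within 200 bp of each other, the 362 wide sites lay at 325 places. Of these, 292 were wide in a single list (195 in NF-YA, 37 in NF-YB and 60 in NF-YC) and 33 (10.2%) in at least 2 lists. NF-YA and NF-YC shared 16 of the 33 places, NF-YB and NF-YC 7, NF-YA and NF-YB 6, and 4 were wide in all 3 lists. The stretch common to the wide intervals covered a median of 73.3% of their joined length (quartiles 57.1 and 84.6). At 15 of the 33 places both edges differed by at most 40 bp between the lists, at 13 a single edge did, and at 5 neither did. The start and end were identical at 2 places. Sites over 200 bp wide with centres within 200 bp of each other must overlap. A common stretch at each place wide in 2 lists was thus fixed by the rule and is no finding. The 4 places wide in all 3 lists had a common stretch too.

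The 4 places wide in all 3 lists differed in strength. At chr17:85356551-85357131 the widths were 280 bp in NF-YA, 540 bp in NF-YB and 260 bp in NF-YC, with 68, 120 and 58 tags. At chr5:121038711-121039031 they were 280, 320 and 260 bp, with 66, 93 and 26 tags and folds of 79.2, 61.6 and 26.6. At chr6:122297351-122297611 they were 220, 240 and 240 bp with 30, 24 and 28 tags, and starts and ends differed by 20 bp. At chrY:2862191-2862791 they were 460, 520 and 380 bp with 36, 44 and 47 tags, at low folds of 8.79, 9.60 and 11.3. The place on chromosome 6 had the closest edges of the 4 and the place on chromosome Y the lowest folds.

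Among the places wide in 2 lists, the most tags summed over the lists were at chr3:90279771-90280031, described above. At chr1:133424011-133424331, NF-YA was 260 bp wide with 181 tags and NF-YC 320 bp wide with 99 tags, while NF-YB had a 100 bp site of 184 tags. At chr14:68333731-68334071, NF-YB (240 bp, 125 tags) and NF-YC (320 bp, 75 tags) were wide and NF-YA had a 60 bp site of 184 tags beyond the right edge of the NF-YB interval and inside the NF-YC one. At chr7:52241811-52242191, NF-YA (340 bp, 184 tags) and NF-YC (360 bp, 90 tags) were wide. At chr3:95428791-95429271, NF-YA (460 bp, 226 tags) and NF-YC (480 bp, 105 tags) began at the same base and ended 20 bp apart. NF-YA was short at chr5:130620411-130620671 (40 bp, 120 tags), where it lay inside the right part of both wide intervals. It was short too at chr17:17200671-17200971 (60 bp, 110 tags), where its centre lay beyond the right edge of both. At these places NF-YB had 62 and 84 tags and NF-YC 73 and 42. At chr14:118331631-118331971, NF-YB (220 bp) and NF-YC (340 bp) were wide from the same start and NF-YA was 40 bp wide. At chr2:172715251-172715511, NF-YA and NF-YC were each 220 bp wide with 48 and 39 tags, and NF-YB had a 40 bp site of 133 tags. The list that was not wide had a site with many tags at several of these places. Those tags entered the sum by which the places were picked, so this is a description only.

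**Figure D4:**
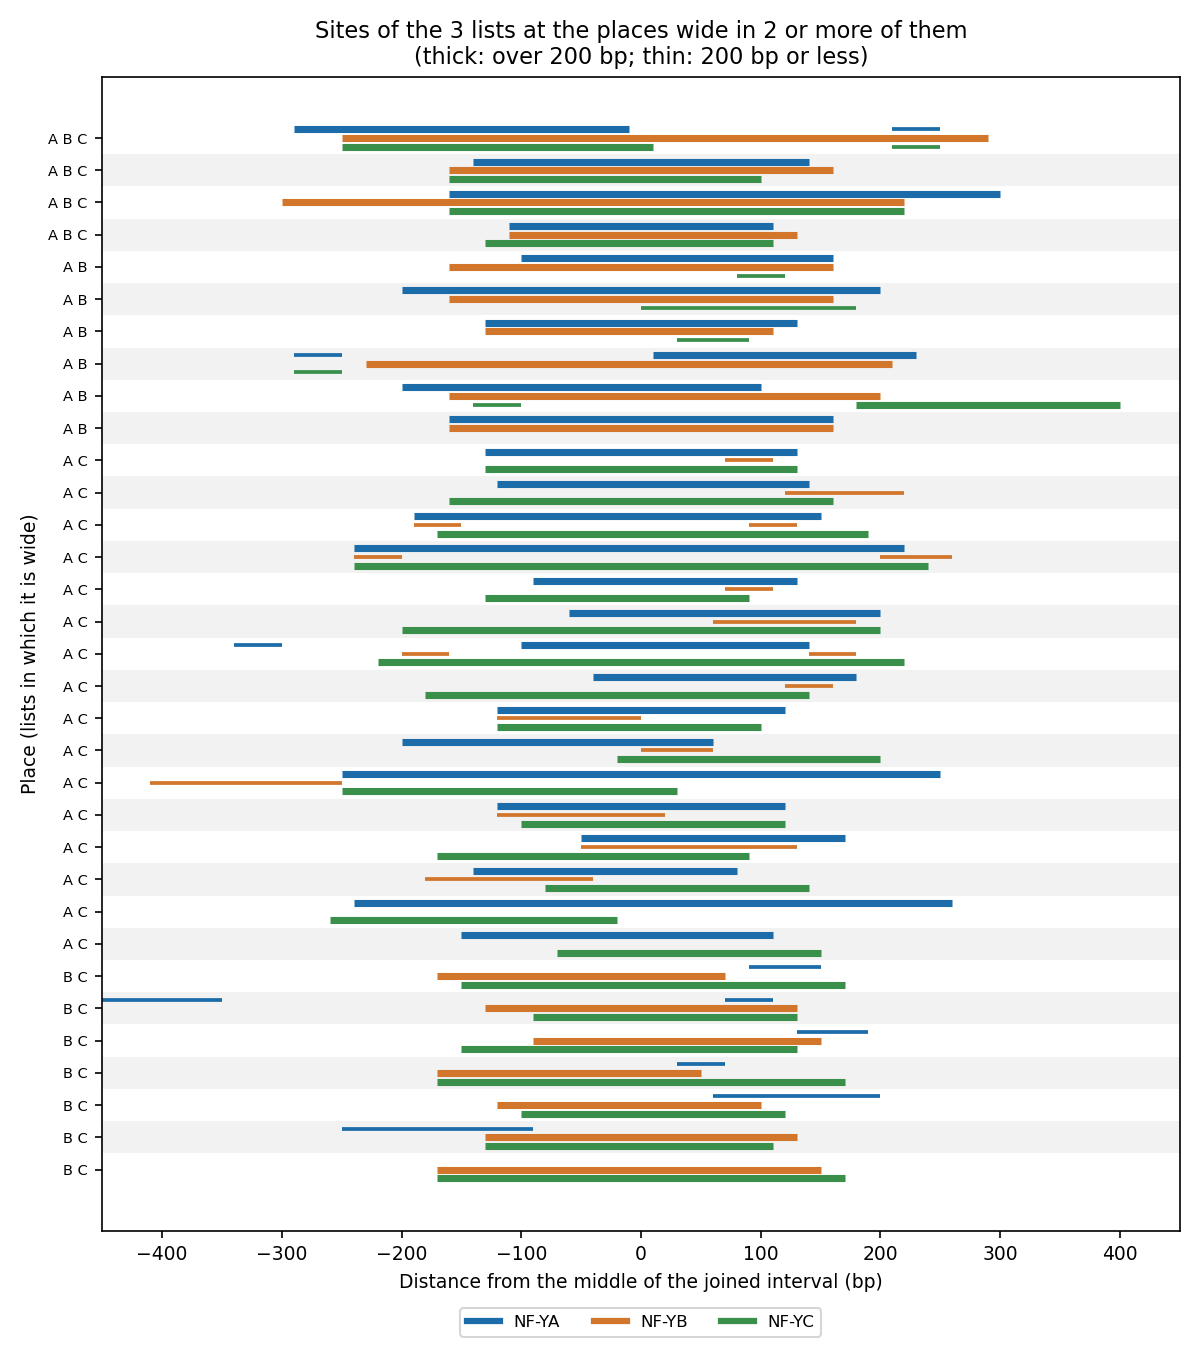
Sites of the 3 lists (colours) at the 33 places that were wide in at least 2 lists (rows, labelled by the letters of those lists), drawn as distance from the middle of the joined wide intervals (x axis, bp). Thick lines are sites over 200 bp and thin lines sites of 200 bp or less; the common stretch covers a median of 73.3% of the joined length, and at 1 place wide in NF-YA and NF-YB, on chromosome 10, a wide NF-YC site lies 290 bp off.

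Pooled over the pairs of lists, usual sites of the other lists lay more often in the outer than in the inner part of the wide interval. This feature was chosen after the values were seen. Of 192 partners of 40 to 60 bp, 172 had their centre inside the wide interval and 20 outside it. Of the 172 inside, 118 (68.6%) were nearer to an edge than to the centre, 46 nearer to the centre and 8 equally far. The parts of an interval nearer to an edge and nearer to the centre have the same length. Equal counts need not be expected all the same, since how the caller set the edges of wide sites was not analysed. At wide NF-YA sites 36 of 47 NF-YB partners (76.6%) and 28 of 42 NF-YC partners (66.7%) were nearer to an edge. At wide NF-YC sites 17 of 29 NF-YA partners (58.6%) and 24 of 29 NF-YB partners (82.8%) were. At wide NF-YB sites 8 of 13 NF-YA partners (61.5%) and 5 of 12 NF-YC partners (41.7%) were. The last pair went the other way, with 7 partners nearer to the centre. Over partners of any width the pairs went both ways, with equal distances counted as inner. Inner and outer counts were 31 and 40 (NF-YB) and 34 and 41 (NF-YC) at wide NF-YA sites. They were 20 and 16 (NF-YA) and 24 and 10 (NF-YC) at wide NF-YB sites. At wide NF-YC sites they were 36 and 26 (NF-YA) and 20 and 30 (NF-YB). The 200 bp limit on centres leaves out partners near the edges of intervals over 400 bp, and some sites share a place, so the cases are not independent.

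The partners in the other lists often lay on the same side of the wide centre. At 22 wide NF-YA sites both NF-YB and NF-YC had a usual site, and at 20 of them the sites lay on the same side of the wide centre, a median of 20 bp from each other. At 18 wide NF-YC sites NF-YA and NF-YB both had a usual site, and at 14 these lay on the same side, again a median of 20 bp apart. For NF-YB there were 3 such sites, with 1 on the same side, 1 on opposite sides and 1 with a partner at the centre. With partners of up to 200 bp, the same side was found at 34 of 40 wide NF-YA sites, 9 of 18 in NF-YB and 26 of 33 in NF-YC. Shared sites of different lists lay close together in general: over all NF-YB sites with an NF-YC partner, the median distance between centres was 30 bp, and over all NF-YA sites with an NF-YB partner 20 bp. Whether the same side was more frequent than this closeness gives was not tested. At chr5:130363051-130363271 of NF-YA, for example, NF-YB and NF-YC each had a 40 bp site from 130363231 to 130363271, at the right end of the wide interval.

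**Figure D5:**
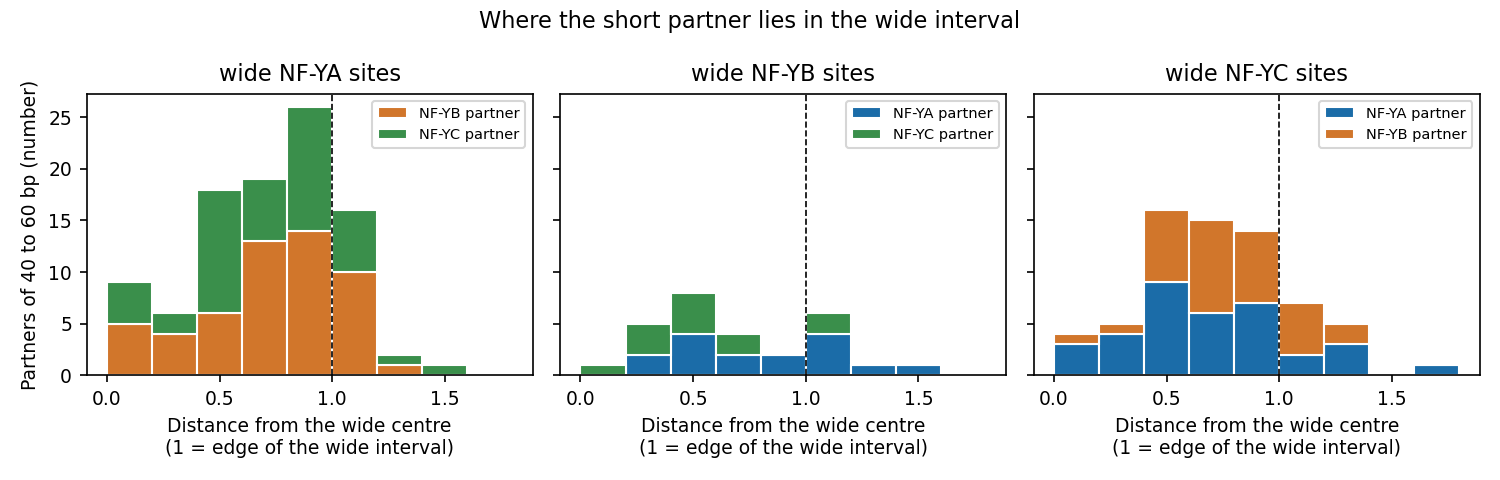
Number of partners of 40 to 60 bp (y axis) by the distance of their centre from the centre of the wide site, divided by the half-width of the wide interval (x axis, so that 1 is its edge, dashed line), with 1 panel per list of wide sites and colours for the list of the partner. In NF-YA and NF-YC the counts are highest between 0.4 and 1, and 20 partners over the 3 panels lie beyond 1. The bars just right of the dashed line also hold the partners that lie exactly at 1.

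Some wide intervals spanned a pair of separate sites of another list. Within a list no 2 centres were closer than 240 bp, so such a pair could lie only in an interval of 240 bp or more, of which there were 163 in NF-YA, 44 in NF-YB and 54 in NF-YC. A pair was found in 2 wide NF-YA, 4 wide NF-YB and 10 wide NF-YC intervals, which measured 320 bp or more with a median of 430 bp. Among sites over 300 bp that is 2 of 47 in NF-YA (4.26%), 4 of 19 in NF-YB (21.1%) and 10 of 22 in NF-YC (45.5%). The centres of a pair lay a median of 340 bp apart (range 240 to 480), and 29 of the 42 inner sites were 40 to 60 bp wide. No interval held more than 2 centres of another list, but with centres at least 240 bp apart most wide intervals were too short for more.

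Both other lists showed the pair at 5 of these 16 wide sites. At chr9:13631531-13632071 of NF-YC, 540 bp wide with 81 tags, NF-YA had 40 bp sites at 13631511 to 13631551 (71 tags) and 13631951 to 13631991 (175 tags). NF-YB had 40 bp sites at 13631511 to 13631551 (32 tags) and 13631991 to 13632031 (103 tags). The left member of the pair thus had the same position in both lists, and the right member was the stronger one in both. At chr16:90144211-90144531 of NF-YC (320 bp, 82 tags), NF-YA had 40 bp sites of 71 and 141 tags and NF-YB 40 bp sites of 44 and 79 tags, each pair 280 bp apart. At chr3:107136111-107136531 of NF-YC the left site was the stronger in NF-YA (183 against 94 tags) and in NF-YB (163 against 33 tags). At chr1:193221051-193221571 of NF-YC (520 bp, 33 tags), NF-YA had 51 and 72 tags and NF-YB 41 and 74 tags. The remaining one was chr17:85356591-85357131 of NF-YB, where NF-YA had sites of 280 and 40 bp (68 and 158 tags) and NF-YC sites of 260 and 40 bp (58 and 66 tags). The member with more tags was the same in both lists at each of these 5 sites.

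At 3 of the places wide in both NF-YA and NF-YC, the NF-YC interval spanned an NF-YB pair. In chr3:95428791-95429271 of NF-YC, NF-YB had a 40 bp site from 95428791 to 95428831 (96 tags) and a 60 bp site from 95429231 to 95429291 (219 tags), 450 bp apart and at the ends of the wide interval; the NF-YA interval held the centre of the first only. At chr7:52241811-52242191, NF-YB had 40 bp sites of 173 and 73 tags, 280 bp apart, and both lay in the NF-YA interval too. At chr7:28258331-28258771 the NF-YB sites had 39 and 63 tags, 340 bp apart. NF-YC gave the pair at chr11:102889771-102890131, where NF-YA was 360 bp wide with 85 tags and NF-YC had 40 bp sites of 87 and 88 tags 240 bp apart.

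Wide sites were found on all 21 chromosomes of the NF-YA list, on 18 of 21 in NF-YB and on 20 of 21 in NF-YC. Leaving chromosome Y aside, the share of wide sites ran from 1.77% to 8.43% over chromosomes in NF-YA, from 0% to 6.41% in NF-YB and from 0% to 7.21% in NF-YC. The highest in NF-YA was chromosome 17, with 22 of 261 sites (8.43%, 5.36 to 12.5), where NF-YB had 4 of 160 (2.50%) and NF-YC 7 of 160 (4.38%). The highest in NF-YB was chromosome 14, with 5 of 78 (2.11% to 14.3%), and in NF-YC chromosome 3, with 8 of 111 (3.16% to 13.7%). These chromosomes were picked as the highest after the counts were seen, and the lists did not share the highest one.

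On chromosome Y 6 of 8 sites were wide: 1 of 2 in NF-YA, 2 of 3 in NF-YB and 3 of 3 in NF-YC. The widest sites of any list lay there, chrY:1790651-1792071 of NF-YC with 1420 bp and 53 tags and chrY:2786951-2788211 of NF-YC with 1260 bp and 60 tags. The latter covered a wide NF-YB site, chrY:2787591-2788031 (440 bp, 33 tags), whose centre lay 230 bp away, beyond the limit for a partner. The 6 wide sites of chromosome Y had folds of 8.16 to 11.3, below the medians of 17.9 to 19.3 for wide sites. Their tags over fold corresponded to 3.998 to 8.89 scaled input tags, where the median over wide sites was 2.00 in NF-YA, 2.00 in NF-YB and 2.04 in NF-YC. This value was not whole at the sites of 1420 and 1260 bp (6.31 and 8.89), nor at chrY:2862191-2862711 of NF-YB (4.55), among others. The range on chromosome Y is thus not a range of input tag counts. Without chromosomes X and Y, 216 wide NF-YA, 51 wide NF-YB and 82 wide NF-YC sites remained.

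Next to these, the widest NF-YA sites with a partner were chr17:3557471-3557971 (500 bp, 76 tags), chr6:113256411-113256911 (500 bp, 42 tags) and chr5:135625031-135625511 (480 bp, 44 tags). At both 500 bp sites the NF-YC list was wide as well, with 280 bp and 26 tags and with 240 bp and 15 tags, starting within 20 bp of the NF-YA site. At the third site NF-YB had a 120 bp site of 24 tags and NF-YC a 160 bp site of 26 tags. In NF-YB chr10:79834091-79834571 (480 bp, 43 tags) spanned NF-YA sites of 23 and 26 tags, and chr19:8893991-8894431 (440 bp, 77 tags) had a wide NF-YA partner of 34 tags. In NF-YC chr8:116158971-116159471 (500 bp, 80 tags) had a 40 bp NF-YA site of 156 tags. The wide NF-YB site chr8:116158891-116159131 of 127 tags overlapped it with its centre 210 bp away, so both counted as without each other.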

How the data were processed

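Per the submitters' processing notes, Bowtie and mm9 were used for mapping, with no version or settings given in the sources used here. The authors called sites in each library by itself with SISSRs 1.4 against the input library, with a p-value threshold of 0.001, an e-value of 10, a scanning window of 20 bp and 1 tag kept per position, per the file headers. A site needed a fold of 7.00 and 14 tags, or 15 in NF-YB, per the file headers. The deposited tag count of a site is a raw whole number, not normalized. The deposited fold is the enrichment of a site over input as the caller gave it. At many wide sites it was not the printed tags over a whole number of scaled input tags, as described above. The deposited p-value served only as an alternative filter. Positions are printed as deposited; the sources used here do not say if they start at 0 or 1.

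A partner was the site of another list with the nearest centre, within 200 bp. Percentiles rank tag counts within a list. Places chain wide sites with centres within 200 bp. Scaled input tags were tags over fold, divided by the ratio of kept to input tags, and whole within a rounding of 0.005 of the fold. The named sites are, per list, the 5 widest, the 5 with most tags, the 5 of highest fold, the 3 lone sites with most tags and 2 on each side of the limit, plus the places wide in all 3 lists and the 10 of most summed tags; any other site named, and the splits by edge, side, inner pairs and chromosome, were chosen after their values were seen. The members and lists were chosen with earlier results of these data known. The functions were tested on simulated data. Tools were pandas 2.3.3, scipy 1.17.1, numpy 2.4.6 and matplotlib 3.10.9 under Python 3.11.15. Other limits of width, distances, overlap of at least 1 bp, tag and p-value minimums, chromosomes and ranking by fold were tried as alternatives.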

Additional observations from a re-analysis of the deposited data

How the results depend on the processing

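Of 123 values recomputed under 9 alternatives, 102 stayed within 1.5 times the count or within the 95% interval of the reported value. The other 21 follow; the counts move by construction with the limit. With sites over 150 bp there were 602 sites in NF-YA, 165 in NF-YB and 267 in NF-YC, with sites over 300 bp 47, 19 and 22, and with p-values of at most 1e-05 5, 8 and 9. With centres within 100 bp, fewer wide sites had a partner: 23.5% (NF-YA with NF-YB), 26.2% (NF-YA with NF-YC), 48.1% (NF-YB with NF-YA), 63.2% (NF-YC with NF-YA) and 44.8% (NF-YC with NF-YB). Over 300 bp, 10.5% of NF-YB sites had such a wide NF-YC site and 13.6% of NF-YC sites such a wide NF-YA site, on 2 and 3 sites. The median partner percentile over 150 bp was 36.6 (NF-YA with NF-YC), 55.6 (NF-YB with NF-YA) and 61.8 (NF-YC with NF-YA), and over 300 bp 61.4 (NF-YA with NF-YC) and 82.0 (NF-YC with NF-YA); the cause was not tested. In the 48 combinations of pair and setting, the reported one included, a wide partner was more frequent at wide than at other sites. No paired analysis was possible because there was a single library per subunit, so no replicate could be left out either. Depth limits each list at 14 or 15 tags: a weaker partner would not be listed, so a missing partner is no sign of absent binding.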

Other observations

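The middles of 5 pairs of neighbouring wide places lay 210 to 1210 bp apart. On chromosome 6, NF-YA had wide sites at chr6:145159591-145159811 and chr6:145160191-145160431, 610 bp apart. On chromosome 7, the place chr7:28258331-28258771, wide in NF-YA and NF-YC, had a wide NF-YA site 1210 bp away at chr7:28259651-28259871. On chromosome 10, the place chr10:118677291-118677691, wide in NF-YA and NF-YB, was followed 290 bp away by a wide NF-YC site at chr10:118677671-118677891, so that the 3 lists were wide side by side there without forming a single place. The other pairs, on chromosomes 8 and Y, are the overlapping wide sites of NF-YB and NF-YC named above.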
